A study of Mus musculus with 29 samples.

Results

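Atoh1 and Pou4f3 were both precipitated from iGPA, a mouse embryonic stem cell line in which doxycycline switches on Gfi1, Pou4f3 and Atoh1 together, and the binding sites of each factor were sorted by whether the other factor was found at the same place. Chromatin immunoprecipitation followed by sequencing (ChIP-seq) gave 26231 Atoh1 summits and 18751 Pou4f3 summits, a summit being the position of highest signal in a peak. Each summit was widened to 300 bp, and windows that overlapped by 1 bp or more became a common site. This gave 40727 sites, of which 3946 (9.69%) held both factors, 22001 (54.0%) Atoh1 only and 14780 (36.3%) Pou4f3 only. The 9 peak lists of the whole series held 175162 kept peaks. What the same sites looked like in the lists of other lines decided no class.

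All lines were differentiated as embryoid bodies, aggregates of differentiating stem cells, and collected on day 6 after 48 h with doxycycline at 2 µg/ml. iGPA gave 2 Atoh1, 2 Pou4f3 and 2 input libraries and 1 Gfi1 library. The comparison lines carried Pou4f3 alone (iPou4f3), Gfi1 and Pou4f3 (iG+P), Pou4f3 and Atoh1 (iP+A), Atoh1 alone (iAtoh1) or Gfi1 and Atoh1 (iG+A), with 2 libraries for each line and precipitated factor. In each line the factors come from a single doxycycline-driven transgene, which in iGPA encodes all 3 on one message joined by 2A peptides. Atoh1 was precipitated through a FLAG tag and Pou4f3 through a MYC tag, so the peaks are those of tagged, induced proteins in embryoid bodies rather than hair cells. The peaks had been called on merged replicates. No list therefore carries a spread between replicates, no p-value was computed, and shares are given with exact (Clopper-Pearson) 95% intervals, which cover only counting error and treat nearby sites as independent, which they are not.

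Atoh1 is a basic helix-loop-helix factor that starts the development of the hair cells of the inner ear. It binds short sequences called E-boxes as a dimer with an E protein. Pou4f3 is a POU homeodomain factor that acts later in the same cells, is needed for their survival, and binds AT-rich sequence through its POU-specific domain and its homeodomain. Gfi1 is a zinc finger repressor that is also needed for hair cells to mature. Pou4f1 and Pou4f2, relatives of Pou4f3 with a very similar DNA-binding domain, work in sensory neurons and retinal ganglion cells.

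The sequences at the strongest sites of each class are shown because they carry the difference between the classes. All are on the plus strand of mouse build mm9, span the 101 bases around the Pou4f3 summit (Atoh1 summit for Atoh1-only sites), and are named by the gene with the nearest annotated start. For the Pou4f3-only sites the first 3 had the highest fold enrichment, 97.5, 55.0 and 45.6, and the next 3, at 42.5, 38.3 and 35.4, were the strongest that held ATAATTAAT with up to 1 mismatch (called the Pou4f pattern here). Capitals mark that pattern, ATNAATNAT or ATAATGCA, on either strand and merged where they overlap.
Gm11574, chr11:96912714-96912814: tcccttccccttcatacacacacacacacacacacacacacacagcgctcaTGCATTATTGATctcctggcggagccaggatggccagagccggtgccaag
Coro1b, chr19:4148066-4148166: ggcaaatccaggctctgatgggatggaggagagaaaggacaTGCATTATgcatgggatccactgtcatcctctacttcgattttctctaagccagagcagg
Odz3, chr8:49559932-49560032: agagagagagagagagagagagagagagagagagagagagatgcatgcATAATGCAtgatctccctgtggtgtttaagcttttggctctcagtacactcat
7SK, chr7:143412527-143412627: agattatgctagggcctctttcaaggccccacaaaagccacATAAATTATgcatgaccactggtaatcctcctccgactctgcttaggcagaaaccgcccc
Pard6b, chr2:167932941-167933041: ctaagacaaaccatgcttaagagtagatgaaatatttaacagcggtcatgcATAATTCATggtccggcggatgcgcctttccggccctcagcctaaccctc
Cradd, chr10:94799769-94799869: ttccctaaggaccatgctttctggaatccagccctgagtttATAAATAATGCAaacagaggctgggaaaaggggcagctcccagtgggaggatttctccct
The 3 strongest Pou4f3-only sites held no Pou4f pattern, and each held ATAATGCA on 1 of its strands. At the Gm11574 and Cradd sites ATAATGCA overlapped the end of a core ATNAATNAT. The looser E-box stands for 3 words, which are CAGATG, the palindrome CAGCTG and the palindrome CATATG, read on either strand. None of the 6 sites held it in the 250 bp around its summit, and all 6 were also peaks in the Pou4f3 lists of iPou4f3, iG+P and iP+A and in no Atoh1 list. The Gm11574 summit lay 18 bp and the Coro1b summit 503 bp upstream of the start. The Odz3 site was in an intron, 57379 bp from the nearest start, and the other 3 were intergenic, 13052 to 288439 bp from one.

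Sites with both factors were ranked by the lower of their Atoh1 and Pou4f3 fold enrichments. The sites at Gm4279, Nhlh1 and Gm15529 were the 3 strongest, and the fourth shown, at AC167245.1, was chosen as the strongest other outside short tandem repeats that held both the Pou4f pattern and the looser E-box. Capitals mark the Pou4f pattern and the looser E-boxes. ATAATGCA is not marked here, but it overlaps the end of the Pou4f pattern at the Gm15529 and AC167245.1 sites.
Gm4279, chr16:11782343-11782443: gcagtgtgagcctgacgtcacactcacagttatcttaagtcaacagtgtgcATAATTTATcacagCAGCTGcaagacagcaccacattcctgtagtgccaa
Nhlh1, chr1:173987889-173987989: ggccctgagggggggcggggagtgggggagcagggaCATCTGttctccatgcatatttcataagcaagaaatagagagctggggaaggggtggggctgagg
Gm15529, chr6:12777870-12777970: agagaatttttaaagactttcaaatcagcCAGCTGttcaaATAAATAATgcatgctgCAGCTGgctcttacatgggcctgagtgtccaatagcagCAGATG
AC167245.1, chr19:6465281-6465381: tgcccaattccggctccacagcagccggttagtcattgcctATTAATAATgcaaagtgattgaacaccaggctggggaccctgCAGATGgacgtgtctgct
At the Gm4279 site the Pou4f pattern and CAGCTG lay next to each other, and the Atoh1 and Pou4f3 summits were 2 bp apart, with folds of 38.4 for Atoh1 and 35.0 for Pou4f3. At the Gm15529 site the Pou4f pattern lay between a pair of CAGCTG boxes, with folds of 33.5 and 47.0 and summits 3 bp apart. The site chosen for its patterns, 2201 bp upstream of the AC167245.1 start and inside an annotated exon of a retained-intron transcript of Nrxn2, a synaptic adhesion gene, had folds of 32.5 and 33.3. The sites at Gm4279, Gm15529 and AC167245.1 were peaks of Atoh1 in iP+A and of Pou4f3 in iPou4f3, iG+P and iP+A, but not of Atoh1 in iAtoh1 or iG+A. The Nhlh1 site, 235 bp upstream of the start of a helix-loop-helix gene of young neurons, held an E-box and no Pou4f pattern, had folds of 40.9 for Atoh1 and 34.8 for Pou4f3, and was a peak in all 7 other lists. Of the 3 strongest Atoh1-only sites, 2 are shown with their looser E-boxes in capitals.
BX000454.1, chr4:139146479-139146579: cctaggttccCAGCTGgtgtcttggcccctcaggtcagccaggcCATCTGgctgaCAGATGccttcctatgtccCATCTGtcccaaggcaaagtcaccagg
Bcl7a, chr5:123796505-123796605: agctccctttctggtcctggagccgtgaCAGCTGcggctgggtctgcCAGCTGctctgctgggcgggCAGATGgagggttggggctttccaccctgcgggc
The Atoh1-only sites shown had Atoh1 folds of 43.9 and 39.3 and held 4 and 3 looser E-boxes in the printed bases and no Pou4f pattern. Both lay in introns and were Atoh1 peaks in iAtoh1, iG+A and iP+A. The remaining one, on chromosome 1 near Spata17 (fold 39.7), is not printed because its bases repeat 1 unit with CAGCTG, 5 copies of which fall in the 101 bases. It was an Atoh1 peak in the same lines and also a Pou4f3 peak in iG+P.

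Most sites of either factor lacked the other. Of the 18726 sites with Pou4f3, 78.9% (95% interval 78.3 to 79.5) had no Atoh1 summit within reach, and of the 25947 sites with Atoh1, 84.8% (84.3 to 85.2) had no Pou4f3. Over 20 chromosomes the share of Pou4f3 sites without Atoh1 ran from 73.4% on chromosome 4 to 84.2% on the X, with a median of 79.6%. In iP+A, whose libraries the classes did not use, the same rule gave 4319 sites with both factors, 14450 with Atoh1 only and 12661 with Pou4f3 only. There 74.6% (73.9 to 75.2) of Pou4f3 sites had no Atoh1, so most Pou4f3 sites stood alone with and without the Gfi1 transgene. Lists of different length and strength limit how closely the shares of the lines can be compared.

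Where both factors were found, their summits were close. The median distance from a Pou4f3 summit to the nearest Atoh1 summit inside a shared site was 34 bp (quartiles 14 and 79), 63.0% (61.5 to 64.5) lay within 50 bp and 43 of 3961 lay on the same base. Counted per 10 bp of distance, 707 Pou4f3 summits fell at 0 to 10 bp, 131 at 51 to 100 bp and 29.6 at 201 to 299 bp. The joining rule itself admits any distance under 300 bp. In iP+A the median was 47 bp (20 and 108) and 52.4% (50.9 to 53.9) lay within 50 bp. At the edge of the rule, 137 Pou4f3 summits of iGPA had their nearest Atoh1 summit at 250 to 299 bp and counted as shared, and 107 had it at 300 to 349 bp.

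**Figure D1:**
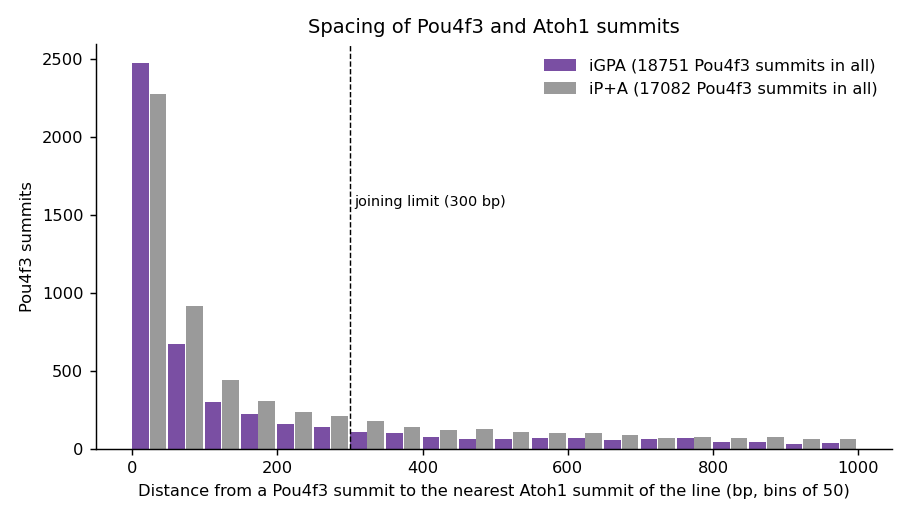
Number of Pou4f3 summits (vertical axis) by distance in bp to the nearest Atoh1 summit of the same line, in bins of 50 bp, for iGPA (purple) and iP+A (grey); the dashed line is the joining limit of 300 bp. In iGPA the bar at 0 to 49 bp holds 2471 summits and the next one 673, and the counts go on falling past the limit, from 137 at 250 to 299 bp to 39 in the last bin under 1 kb.

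Pou4f3-only summits were mostly far from Atoh1. The median distance to the nearest Atoh1 summit was 31492 bp, 6.00% (5.63 to 6.40) lay within 1 kb and 38.4% (37.6 to 39.2) at 50 kb or more. Atoh1-only summits had a median of 24780 bp to the nearest Pou4f3 summit. The count at 300 to 349 bp and the share within 1 kb show how few Pou4f3-only sites narrowly missed being joined.

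Peak strength differed between the classes in the lists that made them, which is a description. Pou4f3 fold enrichment had a median of 4.37 (quartiles 3.43 and 6.99) at sites with both factors and 4.08 (3.35 and 5.53) at Pou4f3-only sites. Atoh1 fold enrichment had 4.18 (3.20 and 6.15) with both and 3.45 (2.95 and 4.43) at Atoh1-only sites. The classes overlapped broadly, and the highest Pou4f3-only fold (97.5) came near the highest at a shared site (107). Sites were ranked by −log10 p and cut into 10 groups of equal size. The share of Pou4f3 sites with Atoh1 stayed between 16.8% and 19.4% over the lower 7 groups and reached 20.8%, 25.8% and 36.7% (34.5 to 38.9) in the upper 3. The share of Atoh1 sites with Pou4f3 climbed more evenly, from 8.55% (7.51 to 9.70) in the lowest group to 30.5% (28.7 to 32.3) in the highest. Even in the strongest group, most sites of either factor were without the other.

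**Figure D2:**
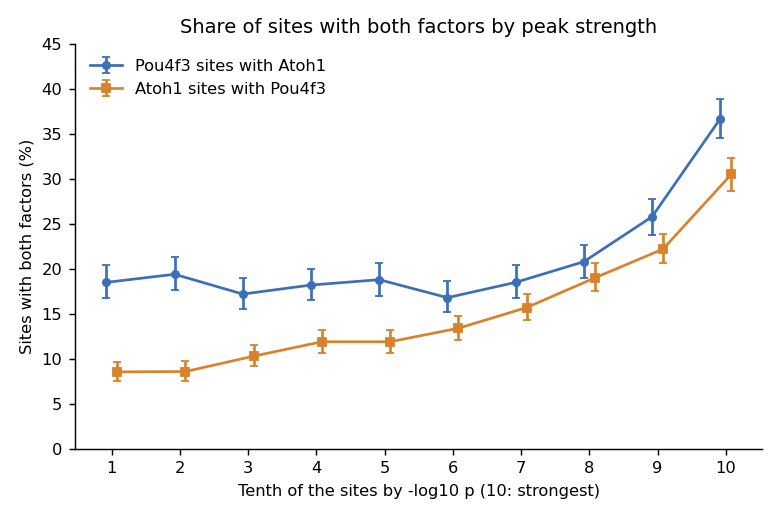
Share of sites with both factors in percent (vertical axis) in 10 groups of equal size ranked by −log10 p (horizontal axis, 10 the strongest), for Pou4f3 sites (circles) and Atoh1 sites (squares) of iGPA, with exact 95% intervals as bars. The Pou4f3 curve is flat over the lower 7 groups and rises to 36.7%, and the Atoh1 curve rises from 8.55% to 30.5%.

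The sequence content separated the classes, and the rule used no sequence. The Pou4f pattern was in 59.7% (59.0 to 60.5) of Pou4f3-only windows of 250 bp, against 11.3% (10.9 to 11.7) in windows 1000 bp to each side, 11.7% of all 10222636 windows of that length without gaps in the genome and 2.94% of the 69925 windows around protein-coding starts. At sites with both factors it was in 35.2% (33.7 to 36.7) around the Pou4f3 summit and 31.6% (30.2 to 33.1) around the Atoh1 summit. At Atoh1-only sites it was in 5.29% (5.00 to 5.59), below the 7.95% (7.70 to 8.21) of their flanks. Per chromosome the share in Pou4f3-only sites ran from 45.8% to 64.0%. All patterns were read on both strands, and matches of different patterns may overlap.

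The 8-letter words of Pou4f3-only sites showed 2 further AT-rich forms. The words with the largest excess over the flanks were ATTATTTA (24.7% of sites, 2.36% of flanks), ATAAATAA (22.2% and 5.14%), ATTATTCA (17.8% and 1.51%) and ATAATGCA (17.3% and 0.930%). ATNAATNAT, the pattern with 2 free letters, was in 64.5% (63.7 to 65.3) of Pou4f3-only sites, 32.9% (31.5 to 34.4) of sites with both factors and 3.16% (2.94 to 3.40) of Atoh1-only sites, with 6.76% of genome windows and 1.85% of start windows. ATAATGCA was in 17.3% (16.6 to 17.9), 7.10% (6.31 to 7.94) and 0.414% (0.333 to 0.508), with 0.920% of genome windows and 0.320% of start windows. Either of these or the Pou4f pattern was in 75.1% (74.4 to 75.8) of Pou4f3-only sites, and in 14.1% of their flanks. ATNAATNAT and ATAATGCA were picked after these words were seen, so their shares describe the same sites they were read from.

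The 5949 Pou4f3-only sites without the Pou4f pattern were not without AT-rich words. ATAATGCA was in 27.1% of them against 0.950% of their flanks, ATTATTCA in 24.6% against 1.58% and CATGAATA in 20.2% against 1.04%. The octamer ATGCAAAT, the word bound by Oct4 and other POU factors, was in 2.33% (2.10 to 2.59) of Pou4f3-only sites, 1.90% of their flanks, 2.18% of genome windows and 0.962% of start windows. TAATTA, a general homeodomain word, was in 26.4% (25.7 to 27.1) of Pou4f3-only sites and 8.59% of their flanks, with 8.93% of genome windows and 2.66% of start windows.

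E-boxes were at or under the level of the surroundings in Pou4f3-only sites. The looser E-box was in 29.2% (28.5 to 29.9) of them, 31.4% (30.9 to 31.9) of their flanks, 31.9% of genome windows and 27.7% of start windows. At sites with both factors it was in 64.4% (62.9 to 65.9) around the Pou4f3 summit and 72.1% (70.7 to 73.5) around the Atoh1 summit, and at Atoh1-only sites in 76.1% (75.5 to 76.6). The stricter AtEAM, the Atoh1 E-box-associated motif, was in 1.51% (1.32 to 1.72) of Pou4f3-only and 19.7% (19.2 to 20.2) of Atoh1-only sites. At sites with both it was in 12.3% (11.3 to 13.4) around the Pou4f3 summit and 14.4% (13.3 to 15.6) around the Atoh1 summit. The level was 2.13% in genome windows and 1.38% in start windows. Among the single cores, CAGCTG was in 8.71% of Pou4f3-only and 50.8% of Atoh1-only sites, and CAGATG in 16.1% and 42.1%. At sites with both, CAGCTG was in 33.9% around the Pou4f3 summit and 40.1% around the Atoh1 summit, and CAGATG in 37.3% and 41.6%. Genome windows held CAGCTG in 8.95% and CAGATG in 18.5%. The word with the largest excess at Atoh1-only sites was AGCAGCTG, in 17.6% against 2.31% of flanks.

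The Gfi1 words AATCACAGC and AATCACTGC, searched because Gfi1 is also induced in iGPA, were rare in every class, in 0.622% (0.502 to 0.763) of Pou4f3-only, 0.380% (0.213 to 0.626) of shared and 0.332% (0.260 to 0.417) of Atoh1-only sites, with 0.519% of genome windows and 0.471% of start windows.

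**Figure D3:**
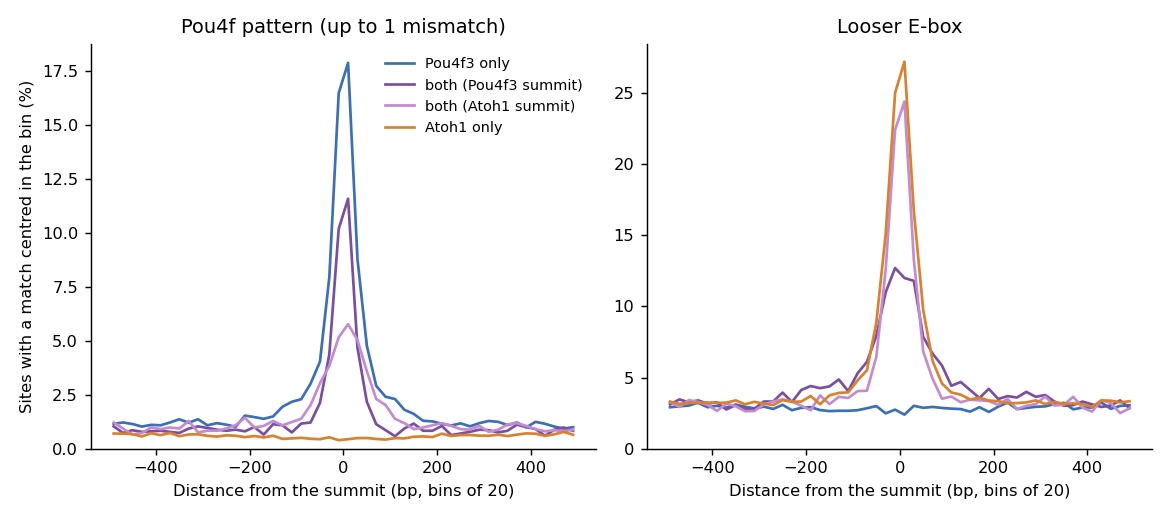
Share of sites with a match centred in each 20 bp bin (vertical axis, percent) by distance from the summit in bp, for the Pou4f pattern (left) and the looser E-box (right), by class and summit. At Pou4f3-only summits the Pou4f pattern peaks at 17.9% in the central bin while the E-box line stays flat, and at Atoh1-only summits the E-box peaks at 27.2% while the Pou4f line dips.

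At sites with both factors each pattern lay nearer to the summit of its own factor. These distances were read in 200 bp to each side of the midpoint between the summits, a wider window than that of 250 bp. The Pou4f pattern was a median of 17 bp from the Pou4f3 summit and 41 bp from the Atoh1 summit, and it was nearer to the Pou4f3 summit at 72.7% (70.4 to 74.9) of 1498 sites. The looser E-box was 16.5 bp from the Atoh1 summit and 36.5 bp from the Pou4f3 summit, and nearer to the Atoh1 summit at 71.3% (69.6 to 72.9) of 2970 sites. The summits of shared sites thus kept an order on the sequence at this resolution.

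Both patterns stood in 31.8% of the 3946 shared windows of this wider kind and in 6.20% of the same windows 1000 bp away, against 25.7% (24.3 to 27.1) in 250 bp around the Pou4f3 summit. The bases between them had a median of 35 in the sites and 91 in the windows away from them. Gaps of 0 to 9, 10 to 19 and 20 to 29 bases made up 13.8%, 15.9% and 13.6% of the 1253 windows with both patterns, against 5.73%, 5.93% and 4.91% of the 489 windows away. No 10-base bin of gaps held more than 15.9%, so the pairs were close but without 1 preferred gap at this bin width. The windows away hold no summit that would centre either pattern. The comparison therefore cannot tell pairing from patterns that each lie near the summit of their own factor.

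Shared sites with a stronger Pou4f3 peak held the Pou4f pattern more often. In 5 groups of equal size by −log10 p of the Pou4f3 peak, the share went through 13.5% (11.2 to 16.1), 20.8%, 36.1% and 48.5% to 56.9% (53.4 to 60.4). In Pou4f3-only sites it went from 49.7% (47.9 to 51.5) in the lowest group to 64.8% (63.1 to 66.5) in the middle one and 58.5% (56.7 to 60.3) in the highest. In the weakest group, at a median fold of 3.06 in both classes, shared and Pou4f3-only sites thus lay far apart. In the strongest group, at median folds of 11.4 and 8.01, they lay close, at 56.9% and 58.5% with overlapping intervals. The looser E-box still differed there, in 66.5% of shared and 28.8% of Pou4f3-only sites. In Atoh1-only sites the looser E-box rose from 58.2% (56.7 to 59.7) to 92.8% (91.9 to 93.5).

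Base composition ran in the same order as the patterns. Median G+C of the 250 bp windows was 41.6% in Pou4f3-only sites (flanks 43.2%), 47.6% in shared sites around the Pou4f3 summit (flanks 44.8%) and 53.6% in Atoh1-only sites (flanks 46.4%). The mean number of CpG in a window was 3.82, 7.04 and 7.80. An AT-rich pattern is met more easily in AT-rich sequence, and the flank and genome shares above were not matched to the sites in G+C. Whether composition gave the lower Pou4f share at Atoh1-only sites than in their flanks was not tested. Summits in short tandem repeats made up 0.244% (0.171 to 0.337) of Pou4f3-only, 0.811% (0.555 to 1.14) of shared and 0.655% (0.552 to 0.770) of Atoh1-only sites.

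Among the 3 classes, Pou4f3-only sites were the farthest from transcription starts. They lay within 1 kb of an annotated start in 11.0% (10.5 to 11.5), shared sites in 21.3% (20.1 to 22.7) and Atoh1-only sites in 28.0% (27.4 to 28.6). The median distance to the nearest start was 18836, 12448 and 7025 bp, and 15.1% (14.5 to 15.7), 9.86% (8.95 to 10.8) and 6.11% (5.80 to 6.43) were over 100 kb from any start. Among peaks with −log10 p of at least 10 the shares within 1 kb were 8.00% (7.43 to 8.59), 10.1% (8.71 to 11.7) and 26.7% (25.8 to 27.6), so the value for shared sites fell more than 2-fold and lay close to that of Pou4f3-only sites. Of Pou4f3-only summits 41.6% were in introns, 2.11% in exons and 45.4% intergenic, against 37.0%, 2.08% and 39.6% of shared and 33.7%, 3.78% and 34.6% of Atoh1-only summits. None of these shares is set against a genome-wide level. They compare the classes with each other and do not show whether any class avoids or prefers starts.

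Near starts both patterns were less frequent, and both were also less frequent in sequence around starts in general. Start windows held the Pou4f pattern in 2.94% against 11.7% of genome windows, and the looser E-box in 27.7% against 31.9%. The shares that follow are not adjusted for these levels. The Pou4f pattern was in 30.1% (27.8 to 32.4) of the 1620 Pou4f3-only sites within 1 kb of a start and in 63.4% (62.6 to 64.2) of the 13160 others. In shared sites the values were 12.1% (9.99 to 14.5) of 842 and 41.4% (39.7 to 43.2) of 3104. The looser E-box was in 64.3% of the 6156 Atoh1-only sites near starts and 80.6% of the 15845 others.

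In iP+A the order of the classes was the same. The Pou4f pattern was in 45.1% (44.2 to 45.9) of its Pou4f3-only sites, 25.7% (24.4 to 27.1) of its shared sites and 6.59% (6.19 to 7.00) of its Atoh1-only sites, and the looser E-box in 27.8% (27.1 to 28.6), 49.5% around the Pou4f3 summit and 70.2% (69.4 to 70.9). The Pou4f pattern therefore separated the classes of iP+A less than those of iGPA, while the looser E-box separated its shared from its Atoh1-only sites more. Its Pou4f3-only sites lay within 1 kb of a start in 20.0% (19.3 to 20.7), its shared sites in 23.2% (22.0 to 24.5) and its Atoh1-only sites in 25.7%. The distance to starts therefore separated the classes of iGPA more than those of iP+A.

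The other 7 lists gave a view of the classes that the rule did not use. Pou4f3-only sites were Pou4f3 peaks in iG+P in 74.6% (73.9 to 75.3), in iPou4f3 in 61.2% (60.4 to 62.0) and in iP+A in 46.0% (45.2 to 46.8). Positions moved by 2000 bp met an iPou4f3 peak in 1.39% (1.20 to 1.59). At least 1 of these lists held 83.0% (82.4 to 83.6) of the Pou4f3-only sites, and all 3 held 37.2% (36.4 to 38.0). The sites in none of the 3 had a median fold of 3.35 and the Pou4f pattern in 49.5% (47.5 to 51.5), and those in all 3 had 5.83 and 63.6% (62.3 to 64.9). The lists differ in length, from 17082 kept peaks in iP+A to 32632 in iG+P, and a longer list can hold more of any class.

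Atoh1 was rare at the Pou4f3-only sites in every line. They were Atoh1 peaks in 1.55% (1.36 to 1.76) in iAtoh1, 2.22% (1.99 to 2.47) in iG+A and 3.95% (3.64 to 4.28) in iP+A, and Gfi1 peaks in iGPA in 1.47% (1.28 to 1.68). Atoh1-only sites were Pou4f3 peaks more often, in 9.25% (8.87 to 9.64) in iPou4f3, 12.7% (12.2 to 13.1) in iG+P and 8.11% (7.75 to 8.48) in iP+A. They were Atoh1 peaks in 33.3% (32.7 to 33.9) in iAtoh1, 44.7% (44.0 to 45.3) in iG+A and 38.2% (37.5 to 38.8) in iP+A.

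Shared sites differed from Atoh1-only sites in which Atoh1 lists held them. They were Atoh1 peaks in 19.3% (18.0 to 20.5) in iAtoh1 and 22.9% (21.6 to 24.3) in iG+A, the lines without the Pou4f3 transgene, and in 62.6% (61.1 to 64.1) in iP+A. They were Pou4f3 peaks in 48.7% (47.1 to 50.3) in iPou4f3, 58.8% (57.3 to 60.4) in iG+P and 58.2% (56.7 to 59.8) in iP+A. Gfi1 peaks lay at 12.5% (11.5 to 13.6) of shared sites, against 3.75% (3.50 to 4.01) of Atoh1-only sites and the 1.47% of Pou4f3-only sites.

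**Figure D4:**
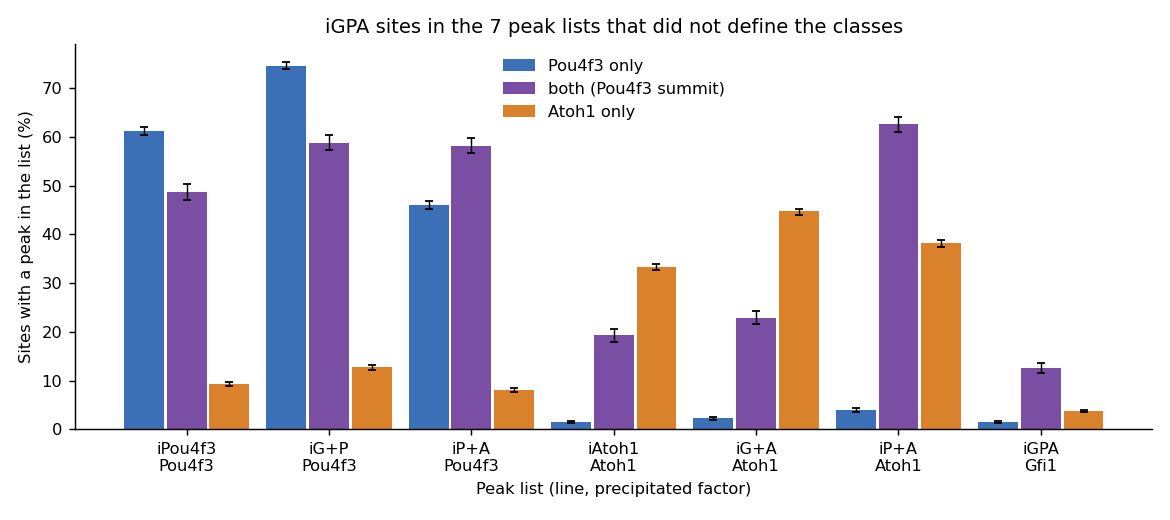
Share of iGPA sites (vertical axis, percent) that are peaks in each of the 7 lists outside the rule, for Pou4f3-only (blue), shared (purple) and Atoh1-only sites (orange), with exact 95% intervals. Pou4f3-only sites reach 46.0% to 74.6% in the Pou4f3 lists and at most 3.95% in the Atoh1 lists, and shared sites reach 62.6% in the iP+A Atoh1 list against 19.3% in that of iAtoh1.

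The patterns sorted the shared sites further. The 1013 shared sites with both the Pou4f pattern and the looser E-box around the Pou4f3 summit were Atoh1 peaks in 6.12% (4.72 to 7.78) in iAtoh1, 7.31% (5.78 to 9.08) in iG+A and 65.0% (61.9 to 67.9) in iP+A. The 1529 with the E-box and no Pou4f pattern had 22.7% (20.6 to 24.9), 26.6% (24.4 to 28.8) and 72.1% (69.8 to 74.4). The 375 with the Pou4f pattern and no E-box had 12.0% (8.89 to 15.7), 13.6% (10.3 to 17.5) and 49.9% (44.7 to 55.0). The 1029 with neither had 29.7% (27.0 to 32.6), 36.3% (33.4 to 39.4) and 50.8% (47.7 to 53.9). In the lines without the Pou4f3 transgene, shared sites with the Pou4f pattern were thus Atoh1 peaks less often than those without it. This held with and without the E-box. With the E-box it was not particular to shared sites. Atoh1-only sites with both patterns around the Atoh1 summit were iAtoh1 peaks in 16.3%, against 36.2% with the E-box alone. The direction was the same in iG+A. Without the E-box, Atoh1-only sites went the other way in iAtoh1, at 39.4% with the Pou4f pattern and 26.7% with neither. In iG+A the intervals of these last groups overlapped.

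For Pou4f3 the order was another. The 375 shared sites with the Pou4f pattern and no E-box were Pou4f3 peaks in iPou4f3 in 73.3% (68.6 to 77.7), those with both patterns in 52.7% (49.6 to 55.8), those with neither in 57.8% (54.7 to 60.9) and those with the E-box alone in 33.8% (31.4 to 36.2). The median Pou4f3 fold in iGPA was 6.55, 5.83, 3.50 and 4.22 for these groups. In iP+A, which has both factors, the share for the E-box alone was 50.3% (47.8 to 52.8).

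**Figure D5:**
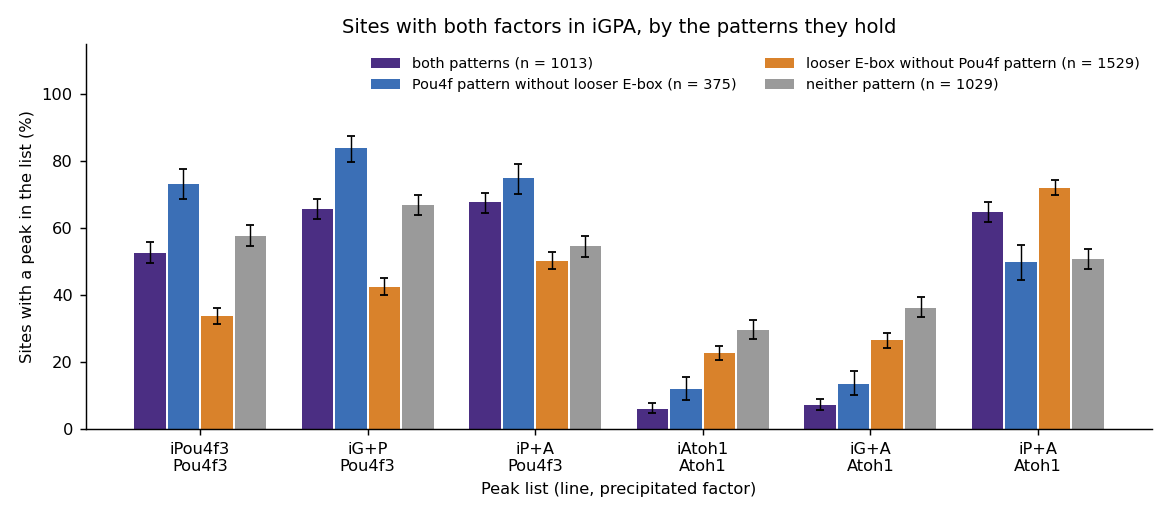
Share of the shared sites of iGPA (vertical axis, percent) that are peaks in the Pou4f3 and Atoh1 lists of other lines, by the patterns within 125 bp of the Pou4f3 summit, with exact 95% intervals. In the Atoh1 lists of iAtoh1 and iG+A the sites with both patterns are lowest, at 6.12% and 7.31%, and in iP+A they reach 65.0%.

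The nearest-start genes were counted last. At least 1 Pou4f3-only site had its nearest start at 8218 of 33924 annotated gene names (24.2%) and at 6128 of 22238 protein-coding genes (27.6%). The counts were 2930 (8.64%) and 2256 (10.1%) for shared sites, and 11112 (32.8%) and 8754 (39.4%) for Atoh1-only sites. Of the protein-coding genes with a Pou4f3-only site, 57.8% (56.6 to 59.1) also had an Atoh1-only site and 62.7% (61.5 to 63.9) had Atoh1 at some site, against 39.4% and 42.8% of all protein-coding genes. So the factors had separate sites but often the same nearest genes. The shares of 27.6%, 10.1% and 39.4% of protein-coding genes with a Pou4f3-only, a shared and an Atoh1-only site are the general level for the lists that follow. The counts were not adjusted for the length of genome nearest to each start. The lists are short and their shares were given no intervals, so small gaps from this level are not read as differences.

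The 10 gene names with the most Pou4f3-only sites were U6, SNORA17, 7SK, U1, 5S_rRNA, U7, U4, Robo1, U2 and SNORA48, of which 9 are small RNA names shared by many loci (936 for U6). Such names took 12.8% (12.3 to 13.4) of Pou4f3-only, 9.58% (8.68 to 10.5) of shared and 6.39% (6.07 to 6.72) of Atoh1-only sites. With only protein-coding starts, a list drawn up after this was seen, the leaders were Cadm1 (21 Pou4f3-only sites), Zeb2 (19), Dach1, Pcdh9 and Robo1 (18 each), Igsf11, Lsamp and Sox5 (17 each), and Arid1b and Robo2 (16 each). Cadm1, Igsf11, Lsamp and Pcdh9 encode cell adhesion proteins, Robo1 and Robo2 are receptors for Slit guidance cues, and Zeb2, Dach1 and Sox5 are transcription factors. The classes were unequal at these genes: Cadm1 had 39 Atoh1-only sites and 8 shared ones, while Zeb2 had 5 and 4 and Dach1 had 3 and 2. The highest fold among the sites of these genes was 22.4, at Lsamp.

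Hair cell genes had sites of each class. Of 56 listed genes, 31 (55.4%) had a Pou4f3-only site, 15 (26.8%) a shared site and 32 (57.1%) an Atoh1-only site, and 10 had none. All 3 shares were above those of all protein-coding genes, 27.6%, 10.1% and 39.4%. Of the 31 genes with a Pou4f3-only site, 9 had no Atoh1 at any site. Over all 6128 protein-coding genes with a Pou4f3-only site, 62.7% had Atoh1 at some site. Folds given for shared sites of genes are those of the Pou4f3 peak. Lmo7, a cytoskeletal gene of the hair cell's cuticular plate, had 5 Pou4f3-only sites, the strongest of fold 7.86. Myo6, an unconventional myosin of the hair bundle base, had 4, the strongest of fold 11.1 at 0.401 kb from a start with the Pou4f pattern. Grxcr1, a gene of stereocilia growth, had 3, the strongest of fold 12.1 in an intron.

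Other hair cell genes had mostly sites with Atoh1. Cdh23, a tip-link cadherin, had 7 Atoh1-only, 2 Pou4f3-only and 1 shared site, and Myo7a, a stereocilia myosin, had 5 Atoh1-only sites and none with Pou4f3. Ush1g, a scaffold of the tip-link complex, had a shared site alone, of fold 11.8 at 2.08 kb from a start, and Ikzf2, a factor of outer hair cells, had 2 shared sites with a highest fold of 12.7 at 60.9 kb and 2 Atoh1-only sites.

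The genes of the induced factors had sites themselves. Pou4f3 had 4 Pou4f3-only sites (highest fold 8.45, 22.4 kb from the start), 2 shared sites, the stronger of fold 18.2 at 1.29 kb upstream without the Pou4f pattern, and no Atoh1-only site. Atoh1 had 2 Pou4f3-only sites (highest fold 3.79, at 43.5 kb), a shared site of fold 3.32 at 0.291 kb and 3 Atoh1-only sites. Gfi1 had 1 site of each class, with Pou4f3 folds of 3.35 at the Pou4f3-only and 3.04 at the shared site. The Atoh1-only site had an Atoh1 fold of 3.08. The shared and Atoh1-only sites of Gfi1 lay in exons, 2.41 and 2.75 kb from the start. The transgene carries the coding sequences of the 3 factors, and whether its reads added to peaks inside these genes was not tested.

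Sensory neuron genes often held Pou4f3-only sites. Of 27 genes found, 18 (66.7%) had a Pou4f3-only site, 4 (14.8%) a shared one and 10 (37.0%) an Atoh1-only one. Against 27.6%, 10.1% and 39.4% of all protein-coding genes, the first share was well above and the Atoh1-only share at the general level. The shared one, of 4 genes, was too small a count to read as different. Of the 18 genes with a Pou4f3-only site, 11 had no Atoh1 at any site. Over all 6128 protein-coding genes with a Pou4f3-only site, 62.7% had Atoh1 at some site. Runx1, a factor of pain-sensing neurons, had 8 Pou4f3-only, 3 shared and 5 Atoh1-only sites. Pou4f1, the closest relative in sensory ganglia, had 6, 2 and 3, Isl1 had 3, 1 and 0, and Neurog1, a proneural gene, had 2 Pou4f3-only sites alone, the stronger of fold 20.8 at 0.152 kb from the start. Runx3, a factor of proprioceptive neurons, had 3 Atoh1-only sites and no other. Ntrk3, the receptor for neurotrophin-3, had 1 site of each class, with a Pou4f3 fold of 34.7 at the shared one.

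Axon guidance and general neuronal genes had many sites of Pou4f3 and of Atoh1. Of 43 axon guidance genes, 30 (69.8%) had a Pou4f3-only, 14 (32.6%) a shared and 31 (72.1%) an Atoh1-only site, each above the 27.6%, 10.1% and 39.4% of all protein-coding genes. Counted by all annotated starts, Robo1 had 16 Pou4f3-only sites and 5 Atoh1-only, Robo2 10 and 4, Efna5 8 and 1 and Sema6a 7 and 3, while Slit1 had 1 and 12 and Unc5a 0 and 6. Plxna2 had 5 Pou4f3-only, 4 shared and 7 Atoh1-only sites. Of 31 general neuronal genes, 17 (54.8%) had a Pou4f3-only, 8 (25.8%) a shared and 20 (64.5%) an Atoh1-only site, also above those levels. Syt1, a synaptic vesicle calcium sensor, had 7 Pou4f3-only sites, and Ebf1, Ebf3 and Myt1l, factors of neuronal differentiation, had 6 each. Elavl4, a neuronal RNA-binding protein gene, had 5 shared sites with a highest Pou4f3 fold of 18.6, and Rbfox3 had 9 Atoh1-only sites.

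Notch pathway genes, which govern the choice between hair cell and supporting cell, had more Atoh1-only than Pou4f3-only sites, as did all protein-coding genes. Of 24, 20 (83.3%) had an Atoh1-only site, 13 (54.2%) a Pou4f3-only site and 5 (20.8%) a shared one, against 39.4%, 27.6% and 10.1% of all protein-coding genes. All 3 shares were about 2 times the general level, the shared one from only 5 genes. Maml3, a coactivator, had 12 Atoh1-only sites and 1 Pou4f3-only site, Notch1 had 5 and 1 with a highest Atoh1 fold of 19.4, and Lfng had 5 and 1. Dll1, a ligand, had 4 Atoh1-only sites, 1 shared site and no Pou4f3-only site. Jag1, another ligand, had 3 Pou4f3-only and 4 Atoh1-only sites, and Maml2 had 2 Pou4f3-only, 1 shared and no Atoh1-only site.

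Pluripotency genes and ribosomal protein genes were counted for comparison. Of 23 pluripotency genes, 11 (47.8%) had a Pou4f3-only, 2 (8.70%) a shared and 9 (39.1%) an Atoh1-only site, with Nanog, Sox2 and Prdm14 holding 2 Pou4f3-only sites each at folds of at most 4.95. Of 40 ribosomal protein genes, 10 had a Pou4f3-only site, 7 (17.5%) a shared one and 8 (20.0%) an Atoh1-only one. The pluripotency share of Pou4f3-only sites was above the 27.6% of all protein-coding genes, while its shared and Atoh1-only shares were near the general 10.1% and 39.4%. The ribosomal share of Pou4f3-only sites was near the general level and its Atoh1-only share under it. Its shared share, of 7 genes, was too small a count to read as different.

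Some of the sites stood in unusually crowded stretches. In a fixed grid of 1 Mb, 10 windows held 100 or more sites, on chromosomes 4, 13, 14 and 17, with 186 Pou4f3-only (1.26%), 215 shared (5.45%) and 1495 Atoh1-only sites (6.80%). Inside them the Pou4f pattern was in 25.3% (19.2 to 32.1) of Pou4f3-only sites against 60.2% (59.4 to 61.0) outside, and the looser E-box in 38.0% (35.5 to 40.5) of Atoh1-only sites against 78.9% (78.3 to 79.4). Median folds inside were 3.13, 3.06 and 2.95 for the 3 classes. The share of shared sites that lay in such windows was above that of Pou4f3-only sites, and without these windows 79.6% (79.0 to 80.2) of Pou4f3 sites had no Atoh1.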

How the data were processed

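Peak lists from 29 libraries of 6 lines were analysed, and groups came from the sample titles. As its methods state, the authors cleaned the reads, aligned them to mm9 with Bowtie 2, removed duplicates, poorly mapped reads and blacklisted regions, and called peaks with MACS2 on merged ChIP replicates against merged inputs. The deposited fold enrichment of a peak is a ratio of ChIP signal to local background, and the deposited −log10 p of a peak comes from MACS2. Both were compared within 1 list, except that shared sites were ranked for naming by the lower of their Atoh1 and Pou4f3 folds. The deposited summit lists name the kept peaks. The filter from called to kept peaks (14.1% of iGPA Pou4f3 and 17.2% of iGPA Atoh1 peaks not kept) and the definition of their signal column were not stated, and the column was not used. Total read depth per library is not given in the peak lists, so depth behind a site is unknown.

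Windows of 300 bp were joined at 1 bp or more, and where a site held several summits of a factor the one of highest −log10 p stood for it. Patterns were searched on both strands in 250 bp around the summit and 1000 bp to each side in NCBIM37, the assembly of mm9, and gene starts came from its GENCODE annotation. Short tandem repeats were summits where 80% or more of the surrounding 100 bp matched the base 1 unit away, with units of up to 12 bp. Named sites were the 3 of highest fold in each class and the 3 strongest with the class pattern outside repeats. Named genes were the 10 with the most Pou4f3-only sites and, in each list, up to 4 leaders in Pou4f3-only sites and up to 3 in the other classes. Some items that these rules select are not reported here. Members, lists and tests were chosen with earlier results of these data known. Python 3.11.15, NumPy 2.4.6, pandas 2.3.3 and SciPy 1.17.1 were used, and the scripts were tested on simulated data. Alternatives were other windows, stricter or all called peaks, equal list length, other patterns and other starts.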

Additional observations from a re-analysis of the deposited data

Results flagged for a closer look

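The called peaks that the authors did not keep, which no comparison above used, held a signal at sites of the other factor. Of the 14780 Pou4f3-only sites, 0.812% (exact 95% interval 0.674 to 0.970) overlapped an Atoh1 peak that was called and not kept, against 0.237% (0.165 to 0.329) at positions moved by 2000 bp. Of the 22001 Atoh1-only sites, 2.89% (2.67 to 3.12) overlapped such a Pou4f3 peak, against 0.959% at moved positions.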

How the results depend on the processing

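No paired analysis was possible because the peaks were called on merged replicates, and no replicate could be left out for the same reason. Of 95 alternative values for 16 results, 33 stayed within the interval of the reported value (or within 1.5 times, for counts) and 62 moved. In every alternative most sites of either factor lacked the other, and the order of the classes in patterns and distance to starts was kept. The cause of these movements was not tested where it does not follow from the setting.

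The shares of Pou4f3 and Atoh1 sites without the other factor were 83.2% and 88.0% with windows of 100 bp, 75.1% and 80.8% with 1000 bp, 84.0% and 85.4% at −log10 p of at least 10, 82.5% and 82.4% at equal list length and 72.8% and 80.9% with all called peaks. With full peak intervals the Atoh1 share was 85.3%, and outside crowded windows the Pou4f3 share was 79.6%. Median spacing was 25 bp with windows of 100 bp and at −log10 p of at least 10, 48 bp with 1000 bp and 31.5 bp at equal list length, and the stricter threshold left 8591 Pou4f3-only sites.

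The Pou4f pattern in Pou4f3-only, shared and Atoh1-only sites was in 11.5%, 4.11% and 0.227% with no mismatch, 90.6%, 73.5% and 29.7% with 2 mismatches, 48.4%, 30.1% and 2.06% in 100 bp windows, 61.6%, 45.3% and 4.52% at −log10 p of at least 10, and 64.5%, 32.9% and 3.16% as ATNAATNAT. Around the Atoh1 summit of shared sites it was in 31.6%, and outside crowded windows in 4.87% of Atoh1-only sites. AtEAM was in 0.501%, 7.20% and 16.8% in 100 bp windows and 1.86%, 15.6% and 25.3% at the stricter threshold, the looser E-box replaced it at 29.2%, 64.4% and 76.1%, and AtEAM reached 14.4% around the Atoh1 summit of shared sites and 20.8% of Atoh1-only sites outside crowded windows.

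Within 1 kb of protein-coding starts lay 9.88%, 19.6% and 26.0% of the 3 classes, within 5 kb of any start 25.6%, 35.2% and 44.5%, and at −log10 p of at least 10 within 1 kb 8.00%, 10.1% and 26.7%, so shared sites came close to Pou4f3-only sites there. Outside crowded windows the Atoh1-only share was 29.2%. Pou4f3-only sites in iPou4f3 and iP+A made up 56.6% and 42.5% with windows of 100 bp, 63.4% and 47.4% with 1000 bp and 79.0% and 65.1% at the stricter threshold, and 60.1% in iPou4f3 with all called peaks. Leaving out crowded windows, the core with 2 free letters, the Atoh1 summit and the words in sites without the Pou4f pattern were chosen after seeing the data. Depth limits weak sites, since a site absent from a list may lie under its threshold.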
